A study of Mus musculus with 4 samples.

Results

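The genes described here are 10 heat shock chaperone genes, *Hspa1a*, *Hspa1b*, *Hspa8*, *Dnaja1*, *Dnajb1*, *Hsp90aa1*, *Hsp90ab1*, *Hsph1*, *Hspb1*, and *Hspe1*, out of 23946 gene symbols listed for each library. They were chosen by their names after the expression values of these same libraries had been seen, so their levels and ratios are given as a description, with no test. All 10 genes were listed once in each library and were above 1 FPKM in every library. FPKM is a count of sequenced fragments scaled for transcript length and for library size. Comparisons between libraries depend on that scaling, so results with other scalings are given as well.

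RNA was measured by bulk RNA-seq in CD51+;CD200+ cells, a population of skeletal stem/progenitor cells, that FACS had separated out of 4 tissues, namely the cranial sutures called posterior frontal (PF), coronal (COR), and sagittal (SAG) and the growth plate (GP) of the tibia. All mice were wild-type CD-1 animals at postnatal day 3, none was treated, and GP served as the reference tissue outside the skull. The sort also removed cells positive for markers of blood cells (CD45, Ter119), of endothelium (Tie2), and of later progenitors (6C3, CD105, Thy1.1, Thy1.2). Each tissue gave 1 library, made from the pooled cells of many mice. The suture pieces held the osteogenic fronts, the mesenchyme, the dura mater below, and the periosteum above, and were digested with collagenase and dispase before the sort. The cDNA was amplified from a low input of total RNA. There is no replicate error, so no difference between tissues could be tested. In bulk samples, fewer cells of a type and less RNA per cell cannot be told apart.

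Heat shock proteins are molecular chaperones that bind unfolded or newly made proteins and help them reach or regain their shape. Hsp70 proteins work in a cycle of ATP binding and hydrolysis that Hsp40 (DnaJ) proteins start and Hsp110 proteins reset, and they pass some of their clients on to Hsp90. Some family members are made all the time (*Hspa8*, *Hsp90ab1*), whereas others are strongly induced by heat and other proteotoxic stress through heat shock factor 1, which binds DNA at inverted repeats of the unit GAA (*Hspa1a*, *Hspa1b*, *Dnajb1*, *Hsph1*, *Hspb1*, and, in part, *Hsp90aa1*).

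Such repeats were searched for in the promoters, which are shown because the genes described below include both inducible and constitutive members of the same families. RefSeq promoters (GRCm38.p6) were matched for 7 of the 10 genes, and each printed stretch was placed in mm9 by an exact match. *Hspa8*, *Hsp90aa1*, and *Hsp90ab1* had no entry in the promoter table, so inducible and constitutive members of the same family cannot be compared here. Each line gives 60 bases, 5′ to 3′ on the strand of the gene, and capitals mark GAANNTTC or TTCNNGAA, a pair of inverted GAA units in either order, which read the same on both strands.
Hspa1a: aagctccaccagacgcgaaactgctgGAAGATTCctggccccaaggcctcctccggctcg
Hspa1b: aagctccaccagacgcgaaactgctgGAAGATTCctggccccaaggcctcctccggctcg
Dnaja1: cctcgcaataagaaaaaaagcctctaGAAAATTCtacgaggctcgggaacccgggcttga
Hsph1: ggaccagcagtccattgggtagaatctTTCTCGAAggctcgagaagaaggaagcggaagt
Hspb1: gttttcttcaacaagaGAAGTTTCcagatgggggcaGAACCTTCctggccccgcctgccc
Hspe1: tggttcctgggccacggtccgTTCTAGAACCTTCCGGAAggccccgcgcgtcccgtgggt

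These stretches lay in mm9 at chr17:35109172-35109231 (*Hspa1a*, minus strand), chr17:35096254-35096313 (*Hspa1b*, minus), chr4:40669351-40669410 (*Dnaja1*, plus), chr5:150438912-150438971 (*Hsph1*, minus), chr5:136363656-136363715 (*Hspb1*, plus), and chr1:55144882-55144941 (*Hspe1*, plus). The *Hspa1a* and *Hspa1b* stretches were identical, and over the whole promoter window of 300 bases, from 250 before to 50 after the start, the pair differed at 4 bases. *Hspe1* carried 4 units in a row, with 2 matches of TTCNNGAA that each overlap the 1 match of GAANNTTC between them. Several genes have more than 1 start, so the 7 matched genes gave 11 windows, of which 7 held at least 1 pair of units. By gene, 6 of 7 held a pair in some window, *Dnaja1* in only 1 of 3, and *Dnajb1* held none. Counted per window, 15.1% of 32851 RefSeq promoter windows of the same length held such a pair, GAANNTTC in 7.86% and TTCNNGAA in 8.52%. Runs of 3 or more units were found in *Hspe1* and *Hsph1*, in *Hsph1* just after the start, and in 0.603% of all windows. A match is only a string of letters in a window, and binding was not measured.

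The 10 genes together held 1774 FPKM in SAG, 949.9 in GP, 795.0 in COR, and 737.3 in PF. As a share of all FPKM this was 0.397% in SAG, 0.184% in GP, 0.162% in COR, and 0.134% in PF. SAG was the highest of the 4 libraries for 8 of the 10 genes, while 28.4% of 13998 genes at 1 FPKM or more in some library were highest in SAG. With median-ratio scaling or quantile normalization in place of the deposited scaling SAG was highest for 9 of the 10, and relative to *Gapdh* it was highest for 6. Shares of all genes were not computed under these other scalings. With *Gapdh* as the scale the median of all genes, PF minus SAG, moved from 0.03 to 0.51, so those shares may differ. Relative to *Gapdh*, PF was the highest library for *Hsp90ab1*, *Hsph1*, and *Hspe1*. PF was the lowest library for 6 genes (34.3% of all genes) as deposited and for 3, *Hspa1a*, *Hspa1b*, and *Hsp90aa1*, relative to *Gapdh*. COR was lowest for 2 genes (18.9% of all genes), SAG for 1 (25.2%), and GP for 1 (17.3%), and GP was highest for the 2 genes left (16.4%). Because these values chose the genes, nothing is read from the counts beyond the order of the libraries.

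**Figure D1:**
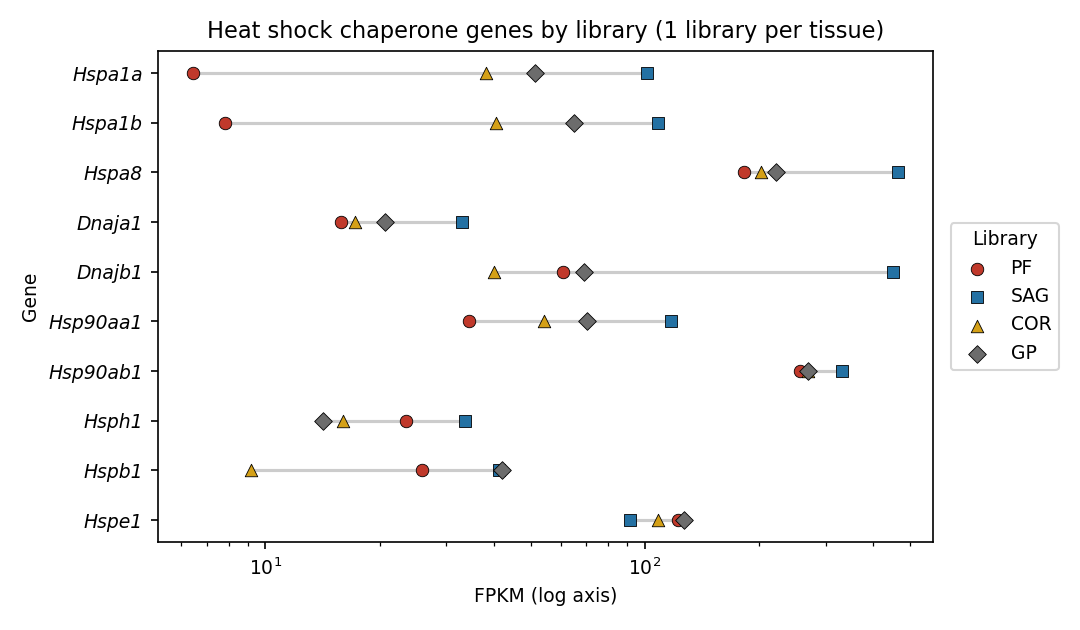
FPKM of each heat shock chaperone gene (rows) on a log axis, with 1 point per library (PF, SAG, COR, GP) and a grey line from the lowest to the highest. *Hspa1a* and *Hspa1b* span the widest range, from 6.44 and 7.82 FPKM in PF to 101.2 and 108.7 in SAG, and *Hsp90ab1* and *Hspe1* the narrowest.

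*Hspa1a* and *Hspa1b* encode the stress-inducible Hsp70 and were the genes with the widest range. *Hspa1a* was at 101.2 FPKM in SAG, 51.5 in GP, 38.2 in COR, and 6.44 in PF. *Hspa1b* was at 108.7 FPKM in SAG, 65.0 in GP, 40.5 in COR, and 7.82 in PF. In both, SAG was highest, GP and COR lay between, and PF stood apart at the bottom. SAG was 15.7-fold above PF for *Hspa1a* and 13.9-fold for *Hspa1b*, and PF was also 5.94-fold and 5.18-fold below COR, the library nearest to it. *Hspa1a* exceeded 93.0% of the genes at 1 FPKM or more in SAG and 38.6% of those in PF.

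The pair are neighbours on chromosome 17 of mm9, at chr17:35106144-35109069 for *Hspa1a* and chr17:35093381-35096183 for *Hspa1b*, both protein-coding genes of 1 exon on the minus strand. Of the windows of 100 bases in the *Hspa1a* transcript, 49.3% also occurred in that of *Hspa1b*, and 49.9% the other way, so reads could be split between them and each single value is uncertain. The ratio of *Hspa1a* to *Hspa1b* stayed from 0.793 in GP to 0.945 in COR. Their sum, which does not depend on that split, was 209.9 FPKM in SAG, 116.5 in GP, 78.7 in COR, and 14.3 in PF. *Hspa1l*, a testis-enriched gene of the same cluster, was listed at 0 in PF and at most 0.598 FPKM elsewhere.

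*Hspa8* encodes the constitutive cytosolic Hsp70, Hsc70, and lies on chromosome 9 (chr9:40609067-40613283). It was at 465.6 FPKM in SAG, 221.6 in GP, 202.2 in COR, and 183.2 in PF. SAG was more than 2-fold above each of the other libraries, 2.54-fold over PF, 2.30-fold over COR, and 2.10-fold over GP, while those libraries lay within 1.21-fold of each other. Near-full-length copies of its coding sequence were found at 4 other places in mm9, so reads could be split between the gene and such copies. The number of such copies was 2 for *Hsp90aa1* and for *Hspe1*, 1 for *Hsp90ab1* and for *Hspb1*, and 0 for *Hsph1*.

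The Hsp40 genes encode J-domain proteins that load clients on Hsp70, and *Dnajb1* is known for its strong induction by heat. *Dnajb1* (chr8:86132074-86135801) was at 450.8 FPKM in SAG, 69.0 in GP, 60.9 in PF, and 40.1 in COR. SAG was 6.53-fold above GP, 7.41-fold above PF, and 11.2-fold above COR, which was the lowest library. It was the only one of the 10 genes at least 3-fold higher in SAG than in each other library, as 2.85% of all genes were. In SAG *Dnajb1* exceeded 99.1% of the genes at 1 FPKM or more. Near-full-length copies were found at 0 other places.

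*Dnaja1* (chr4:40669183-40684182) encodes another J-domain protein. It was at 33.0 FPKM in SAG, 20.6 in GP, 17.2 in COR, and 15.8 in PF. The order of the libraries was that of *Hspa8*, with SAG 2.08-fold above PF. There were 3 near-full-length copies of *Dnaja1* elsewhere in mm9.

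*Hsp90aa1* and *Hsp90ab1* encode the cytosolic Hsp90 proteins, of which the alpha form is the more inducible. *Hsp90aa1* (chr12:111928815-111940938) was at 117.6 FPKM in SAG, 70.5 in GP, 54.2 in COR, and 34.5 in PF. *Hsp90ab1* (chr17:45704724-45710220) was at 330.2 FPKM in SAG, 268.8 in COR, 268.6 in GP, and 257.0 in PF. *Hsp90aa1* followed the order SAG, GP, COR, PF, as *Hspa1a* did, with SAG 3.41-fold above PF, whereas *Hsp90ab1* was the more abundant in every library and spanned only 1.28-fold. COR and GP differed by less than 0.01 log2 units for *Hsp90ab1*.

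*Hsph1* (chr5:150416862-150438951) encodes Hsp105, an Hsp110 protein that exchanges the nucleotide on Hsp70. It was at 33.6 FPKM in SAG, 23.5 in PF, 16.1 in COR, and 14.2 in GP. SAG was highest, but PF came next and GP was lowest, an order that none of the other 9 genes had as deposited. Relative to *Gapdh*, *Hspa8* took that order, and *Hsph1* was highest in PF, with SAG next. SAG was 2.36-fold above GP and 1.43-fold above PF.

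*Hspb1* (chr5:136363789-136365433) encodes the small heat shock protein Hsp25, which holds unfolded proteins without ATP and binds actin. It was at 42.1 FPKM in GP, 41.4 in SAG, 25.9 in PF, and 9.16 in COR. SAG and GP were level, and COR was at least 2-fold below every other library, which held for 1 of the 10 genes and for 0.907% of all genes. COR was 4.59-fold below GP, 4.52-fold below SAG, and 2.83-fold below PF.

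*Hspe1* (chr1:55144976-55148151) encodes Hsp10, the lid of the mitochondrial chaperonin whose barrel is made of Hsp60, the product of *Hspd1*. It was at 126.8 FPKM in GP, 122.3 in PF, 108.7 in COR, and 91.6 in SAG. It was the one gene that was lowest in SAG, and its whole range was 1.38-fold. *Hspd1* was at 65.1 FPKM in GP, 64.5 in SAG, 63.0 in COR, and 28.2 in PF. The ratio of *Hspe1* to *Hspd1* was therefore 4.34 in PF and from 1.42 to 1.95 in the other libraries.

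Pairs of libraries were compared by the difference in log2(FPKM + 1), which shrinks the ratio where both values are low, for genes at 1 FPKM or more in either library. A gene was counted as different at 3-fold or more, and at 2-fold or more as a lower threshold. The 6 pairs share libraries, so their counts are not independent of each other. The percentage of all compared genes that passed in the same direction stands beside each count made with the deposited values.

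In PF compared with SAG, 4 of the 10 genes were at least 3-fold lower in PF, *Hspa1a*, *Hspa1b*, *Dnajb1*, and *Hsp90aa1*, and 9.04% of all genes were lower by as much. At 2-fold *Hspa8* and *Dnaja1* joined them, for 6 of 10 against 18.5% of all genes. Relative to *Gapdh* both were within 2-fold again, *Hspa8* at -0.81 and *Dnaja1* at -0.51, and *Dnaja1* was at -0.63 with a correction for GC content. The log2 difference, PF minus SAG, was -3.78 for *Hspa1a*, -3.64 for *Hspa1b*, -2.87 for *Dnajb1*, and -1.74 for *Hsp90aa1*. The median over the 10 genes was -1.18, and that over all 13490 genes compared was 0.03. None of the 10 genes was 2-fold or more higher in PF. *Hsp90aa1* no longer passed 3-fold relative to *Gapdh*, at -1.22, or with the GC correction, at -1.46.

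COR compared with SAG gave a similar median, -1.15 over the 10 genes against -0.02 over all genes. Only *Dnajb1*, with a log2 difference of -3.46, and *Hspb1*, with -2.06, were at least 3-fold lower in COR (6.15% of all genes). At 2-fold 7 of the 10 were lower in COR (12.5% of all genes), namely *Hspa1a*, *Hspa1b*, *Hspa8*, *Dnajb1*, *Hsp90aa1*, *Hsph1*, and *Hspb1*. Relative to *Gapdh* 4 of the 10 passed 2-fold, and with the GC correction 4 passed 3-fold, *Hspa1a* and *Hspa1b* among them. The share of all genes was not computed for these settings.

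PF and COR differed chiefly in the inducible Hsp70 genes. *Hspa1a* and *Hspa1b* were at least 3-fold lower in PF, with log2 differences of -2.40 and -2.23 (4.87% of all genes lower at 3-fold and 12.8% at 2-fold). *Hspb1* was 2-fold or more higher in PF, with a log2 difference of 1.40 (16.6% of all genes). The other 7 genes were within 2-fold, and the median over the 10 genes was -0.09, whose sign turned relative to *Gapdh* and with a correction for GC content.

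Against GP, the reference tissue, each suture differed in other genes. In PF *Hspa1a* and *Hspa1b* were at least 3-fold lower (6.24% of all genes), by 8.0-fold and 8.31-fold in FPKM, and *Hsp90aa1* joined them at 2-fold (14.4%). In SAG *Dnajb1* was at least 3-fold higher (4.80%), with a log2 difference of 2.69, and *Hspa8* and *Hsph1* joined it at 2-fold (9.81%). In COR *Hspb1* alone was lower, with a log2 difference of -2.08, at both thresholds (3.20% of all genes at 3-fold and 6.99% at 2-fold). The medians over the 10 genes were -0.32 for PF, 0.73 for SAG, and -0.31 for COR minus GP, against 0.03, 0.03, and 0.02 over all genes, and the PF median turned sign relative to *Gapdh*.

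Set against all 3 other libraries at once, *Hspa8* and *Dnajb1* were at least 2-fold higher in SAG than in each (5.51% of all genes), and *Hspa1a* and *Hspa1b* at least 2-fold lower in PF than in each (5.90%). Relative to *Gapdh* this did not hold for *Hspa8*, whose log2 difference from SAG was -0.81 in PF and -0.92 in COR.

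**Figure D2:**
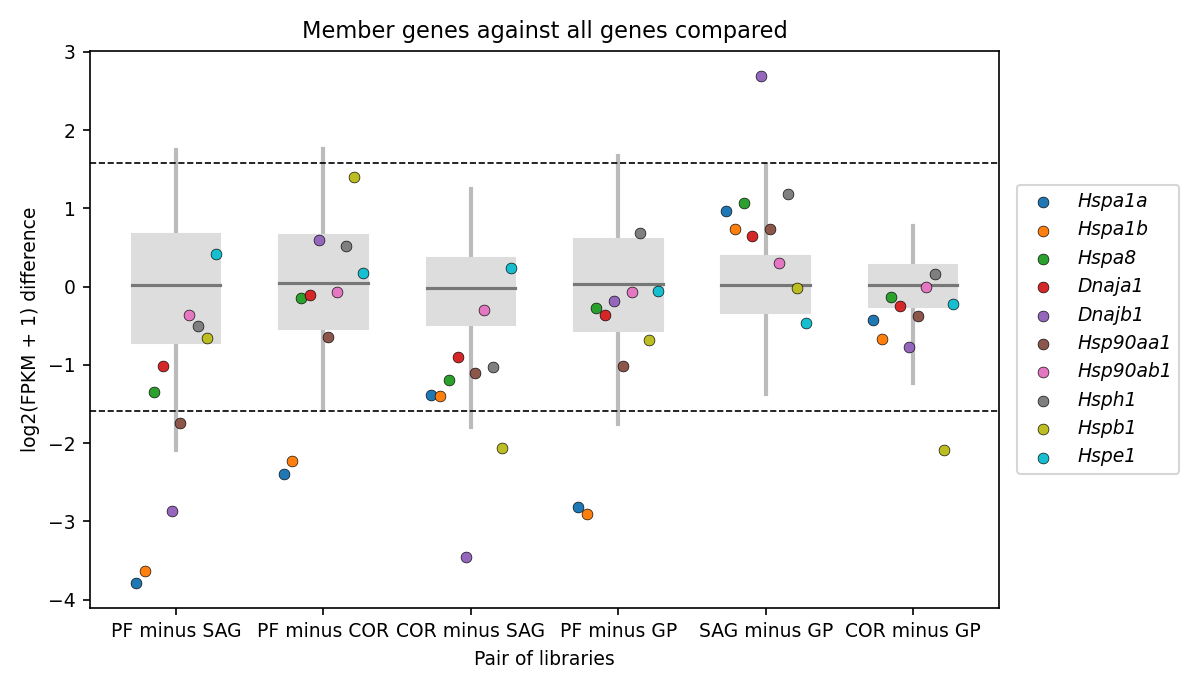
Difference in log2(FPKM + 1) of each heat shock chaperone gene (coloured points) for the 6 pairs of libraries, with a grey bar over the middle 90% of all genes compared and dashed lines at 3-fold. *Hspa1a* (-3.78) and *Hspa1b* (-3.64) lie farthest below the bar for PF minus SAG, *Dnajb1* lies outside it in each pair that holds SAG, and *Hspb1* lies below it in both pairs of COR with SAG and GP.

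Ratios of genes within a library do not depend on how the libraries were scaled to each other. The ratio of the inducible *Hspa1a* and *Hspa1b*, summed, to the constitutive *Hspa8* was 0.526 in GP, 0.451 in SAG, 0.389 in COR, and 0.0778 in PF. PF was therefore 5.79-fold below SAG, 5.0-fold below COR, and 6.75-fold below GP, while SAG, COR, and GP lay within 1.35-fold of each other. On this measure GP, not SAG, was the highest library, since *Hspa8* was itself highest in SAG.

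The ratio of *Hsp90aa1* to *Hsp90ab1* was 0.356 in SAG, 0.263 in GP, 0.202 in COR, and 0.134 in PF, so that SAG was 2.65-fold above PF. This ratio is not corrected for GC content, which was 43.7% in *Hsp90aa1* and 51.0% in *Hsp90ab1*. With the GC correction the log2 difference, PF minus SAG, was -1.46 for *Hsp90aa1* and -0.47 for *Hsp90ab1*, against -1.74 and -0.36 as deposited. For the Hsp40 genes the ratio of *Dnajb1* to *Dnaja1* was 13.7 in SAG, 3.85 in PF, 3.35 in GP, and 2.33 in COR. PF thus had the smallest ratio of inducible to constitutive genes for Hsp70 and Hsp90. *Dnaja1* was not classed as constitutive here, so the Hsp40 ratio, lowest in COR, is not read as an inducible share. *Dnajb1* exceeded the summed *Hspa1a* and *Hspa1b* in PF, 4.27 to 1, and in SAG, 2.15 to 1, but not in COR, 0.509 to 1, or GP, 0.592 to 1.

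**Figure D3:**
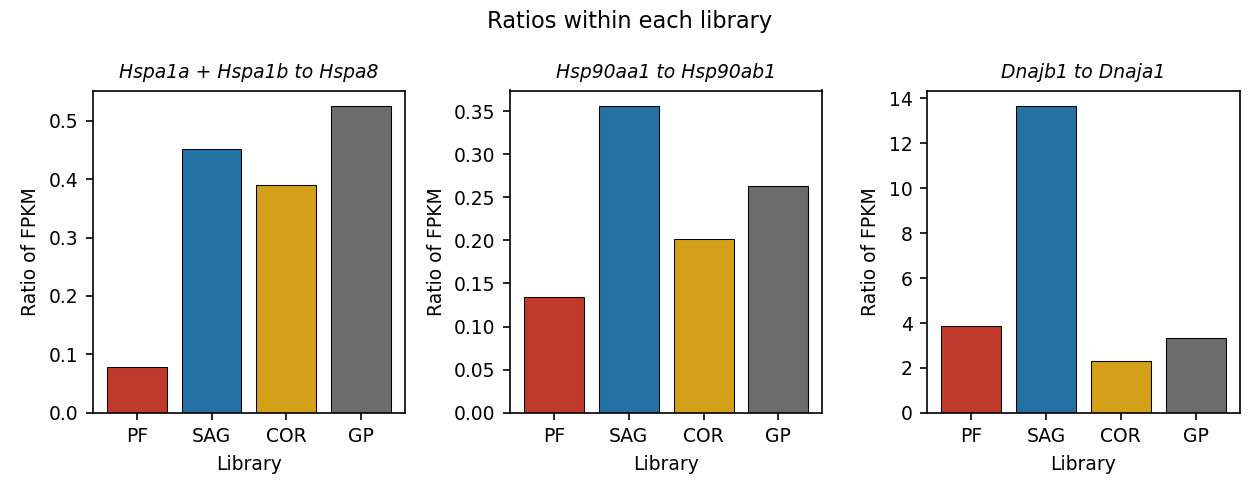
Ratio of FPKM within each library (bars, 1 library per tissue, no error) for genes of 3 families, inducible to constitutive for Hsp70 and Hsp90. *Hspa1a* plus *Hspa1b* over *Hspa8* is 0.0778 in PF and from 0.389 to 0.526 elsewhere, and *Dnajb1* over *Dnaja1* is 13.7 in SAG and from 2.33 to 3.85 elsewhere.

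The other chaperone genes were taken from lists written with earlier results of these data known. Among all 13998 genes, 24.7% passed 3-fold in at least 1 pair of libraries. Of the other Hsp70 genes 3 of 7 did, and 5 of 7 were at least 2-fold lower in PF than in SAG (18.5% of all genes). Their median PF minus SAG difference was -1.33. *Hspa4l*, a stress-inducible Hsp110 gene, was at 13.6 FPKM in SAG, 4.72 in GP, 3.01 in COR, and 0.151 in PF, in the order of *Hspa1a*. *Hspa2*, known from meiotic germ cells, was at 18.8 FPKM in SAG, 6.90 in PF, 5.75 in GP, and 5.12 in COR, and was thus highest in SAG. *Hspa14*, which acts at the ribosome, was at 10.6 FPKM in PF and from 34.8 to 37.3 in the other libraries.

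Of the other *Dnaja* and *Dnajb* genes 2 of 11 passed 3-fold. *Dnaja4*, a heat-inducible gene, was at 13.3 FPKM in SAG, 6.95 in GP, 6.54 in COR, and 1.99 in PF, again SAG highest and PF lowest. *Dnajb13*, which encodes a protein of the radial spokes of motile cilia, was at 10.3 FPKM in SAG, 2.66 in PF, 0.0515 in COR, and 0.0263 in GP. Of the cochaperones of Hsp70 0 of 9 passed. *Bag3*, a heat-shock-induced nucleotide exchange factor, was at 48.1 FPKM in PF, 34.6 in COR, 27.6 in GP, and 26.2 in SAG, and was thus highest in PF and lowest in SAG, unlike *Hspa1a*, *Hspa1b*, and *Dnajb1*. It was chosen after its values were seen.

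Of the Hsp90 cochaperones 1 of 12 passed 3-fold. This was *Chordc1*, at 30.0 FPKM in SAG, 24.6 in GP, 24.5 in COR, and 7.55 in PF, so that PF alone was low. Of the other small heat shock protein genes 5 of 6 passed, in different directions. *Hspb6* was at 34.6 FPKM in SAG, 19.1 in GP, 13.1 in COR, and 6.92 in PF, in the order of *Hspa1a*. *Hspb8*, the partner of Bag3, was at 96.1 FPKM in SAG, 59.3 in PF, 24.1 in COR, and 17.1 in GP. *Hspb7*, a gene of heart and muscle, was at 26.0 FPKM in GP, 9.44 in COR, 8.61 in PF, and 1.02 in SAG, with SAG alone low. *Hspb2*, another gene of muscle, was at 24.3 FPKM in GP, 16.9 in PF, 6.11 in COR, and 4.86 in SAG. The last gene past 3-fold, *Cryaa*, was at 3.20 FPKM in COR and at most 0.0227 elsewhere. *Cryab*, which did not pass, was the most abundant gene of this list in each library. It was at 215.2 FPKM in PF, 171.3 in GP, 116.7 in SAG, and 80.2 in COR, and was thus highest in PF.

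None passed 3-fold among 7 mitochondrial chaperone genes, 13 genes of the TRiC chaperonin and prefoldin, and 12 chaperone genes of the endoplasmic reticulum. The same held for the Hsp70 cochaperones above. In the mitochondrial list *Hspa9* and *Hspd1* were more than 2-fold lower in PF than in SAG, with differences of -1.55 and -1.17. In the same pair 3 of the 7 genes were higher in PF. COR was the highest library for 7 of the 13 TRiC and prefoldin genes and for 8 of the 12 genes of the endoplasmic reticulum, against 19.9% of all genes. *Hspa5*, the Hsp70 of the endoplasmic reticulum, was at 706.9 FPKM in SAG, 658.8 in COR, 652.3 in GP, and 520.4 in PF, and was chosen after its values were seen. The median PF minus SAG difference was -0.09 for the mitochondrial list, -0.12 for TRiC and prefoldin, and -0.05 for the endoplasmic reticulum, beside -1.18 for the 10 heat shock chaperone genes and -1.33 for the other Hsp70 genes.

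**Figure D4:**
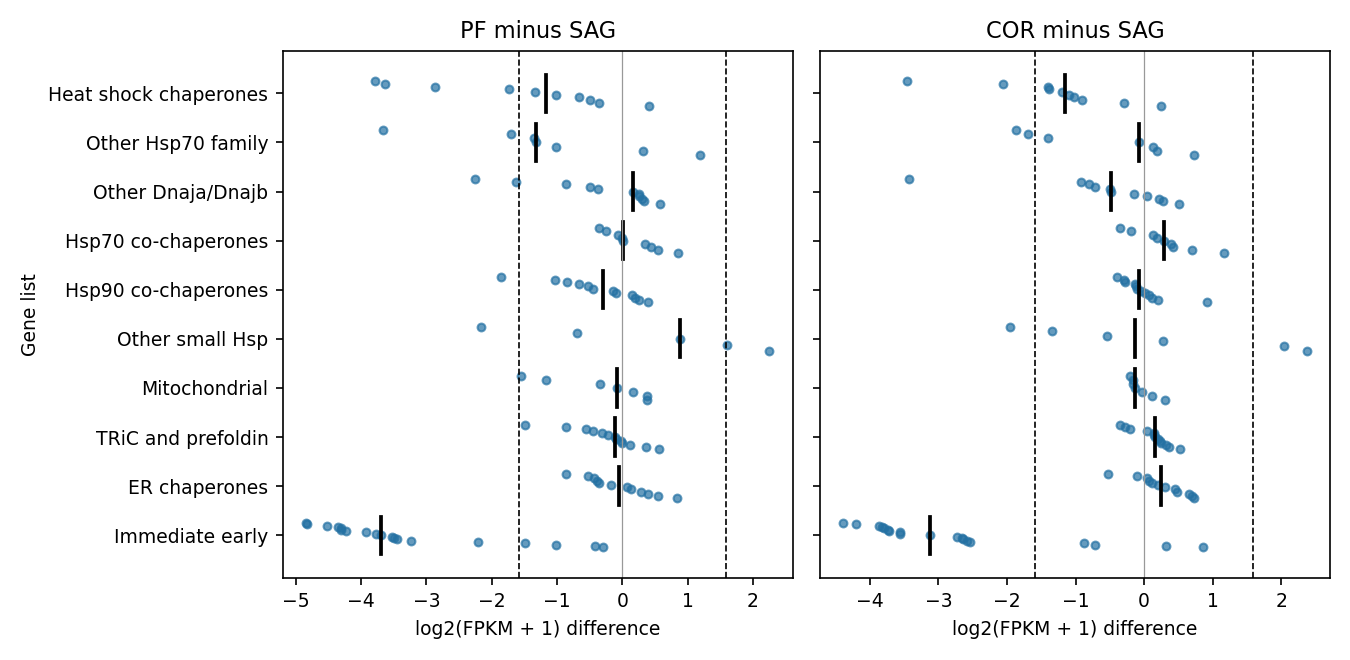
Difference in log2(FPKM + 1) for each gene (points) of the heat shock chaperones, 8 other chaperone lists, and the immediate early genes, PF minus SAG on the left and COR minus SAG on the right, with the list median as a black bar and dashed lines at 3-fold. The heat shock chaperones have medians of -1.18 and -1.15, the other Hsp70 genes of -1.33 and -0.08, and the immediate early genes of -3.70 and -3.12, while the mitochondrial, TRiC and prefoldin, and ER lists lie between -0.13 and 0.25.

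*Hsf1*, the factor that drives the heat shock genes, was at 30.6 FPKM in PF, 28.4 in COR, 21.4 in GP, and 21.3 in SAG. Its transcript was thus no higher in SAG, and its activity, which is set largely on the protein, was not measured. *Hsf2*, another heat shock factor gene, went the other way at a low level. It was at 2.24 FPKM in SAG, 1.93 in COR, 1.30 in GP, and 0.566 in PF. Of 12 other genes known to be induced by heat shock, 4 passed 3-fold (24.7% of all genes), 7 were highest in SAG (28.4%), and 8 were lowest in PF (34.3%), with a median PF minus SAG difference of -0.78. The list overlaps those above in *Bag3*, *Chordc1*, *Ahsa1*, *Dnaja4*, *Dnajb4*, *Hspa4l*, and *Hspd1*, which are counted again here. The 4 past 3-fold were *Hspa4l*, *Dnaja4*, *Chordc1*, and *Serpinh1*, the collagen chaperone gene, which was at 800.0 FPKM in COR, 419.6 in GP, 389.4 in PF, and 215.3 in SAG. *Serpinh1* was the one of these 4 that was lowest in SAG.

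The immediate early genes, which cells switch on within minutes of a stimulus, had a larger median difference between SAG and PF than the heat shock chaperones. Of 19 such genes 15 were at least 3-fold higher in SAG than in GP (4.80% of all genes) and 15 at least 3-fold lower in PF than in SAG (9.04%), with a median PF minus SAG difference of -3.70. The 4 with the largest ratios were *Egr2*, *Atf3*, *Nr4a1*, and *Btg2*, and *Atf3* was at 213.4 FPKM in SAG, 66.5 in GP, 17.1 in COR, and 6.54 in PF. Their summed level was 11400 FPKM in SAG, 2114 in GP, 1236 in COR, and 975.7 in PF, the library order of *Hspa1a* and *Hspa1b*. Their part in the chaperone result was not tested.

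Markers of other cells also moved with the libraries. The summed choroid plexus markers were at 5450 FPKM in SAG, 542.5 in PF, 236.4 in GP, and 235.1 in COR. Of these genes 5 of 8 were highest in SAG (28.4% of all genes). *Ttr* made up most of the sum, at 5103 FPKM in SAG, 465.4 in PF, 141.2 in COR, and 9.74 in GP, and *Otx2* was at 168.3 FPKM in SAG. *Aqp1* was lowest in SAG, at 11.9 FPKM, and *Enpp2* and *Sostdc1* were highest in GP, at 83.0 and 101.5 FPKM. The summed chondrocyte markers were at 4321 FPKM in SAG, 3220 in GP, 257.5 in PF, and 200.9 in COR, with 5 of 9 highest in SAG (28.4% of all genes). None of the genes of these lists was at 0 in any library. The part of these cells in the chaperone result was not tested.

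SAG was the lowest library for 6 of the 9 skeletal markers (25.2% of all genes). *Alpl*, the gene of bone alkaline phosphatase, was at 645.1 FPKM in COR, 461.0 in PF, 257.8 in GP, and 59.7 in SAG, and *Sp7*, an osteoblast transcription factor gene, ranged from 7.93 FPKM in SAG to 199.9 in COR. *Col1a1*, *Col1a2*, and *Sparc* were the other 3, listed at 0 in COR, and *Col1a2* also in GP, beside 606.2 FPKM or more for each gene in the libraries where it was not at 0, so these entries may be failed estimates. No chaperone gene was at 0, but whether other values were affected was not tested. Whether the lower skeletal markers in SAG bear on the chaperone result was not tested either.

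The leukocyte, erythroid, and skeletal muscle lists summed to 44.0, 15.6, and 20.6 FPKM in PF and to at most 16.1, 1.94, and 11.8 FPKM elsewhere. The neuron list summed to 82.8 FPKM in PF, of which *Gap43* was 78.8, and to at most 22.3 elsewhere, while *Snap25*, *Syt1*, and *Map2* were highest in SAG, at 4.43 FPKM or less. The endothelial list summed to at most 16.9 FPKM, in SAG, of which *Kdr* was 14.9, and each other gene of the list was under 1 FPKM there. *Tyrobp*, a leukocyte marker, was listed at 0 in every library. Of the sort markers, *Itgav* (CD51) was at 15.0 FPKM in COR, 13.5 in GP, 12.7 in PF, and 6.20 in SAG, and *Cd200* ranged from 23.5 FPKM in PF to 62.6 in COR. *Ptprc* (CD45), *Tek* (Tie2), and *Thy1*, whose proteins the sort had excluded, stayed under 1 FPKM throughout. Of the other genes whose proteins were sorted out, *Enpep* (6C3) was at 7.05 FPKM in PF, 3.74 in COR, 2.74 in SAG, and 1.39 in GP, and *Eng* (CD105) at 1.70 FPKM in PF and 1.07 or less elsewhere. The number of fragments was not given, and by an estimate from the lowest values PF held 42.0% of the fragments of SAG, COR 87.1%, and GP 82.9%.

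**Figure D5:**
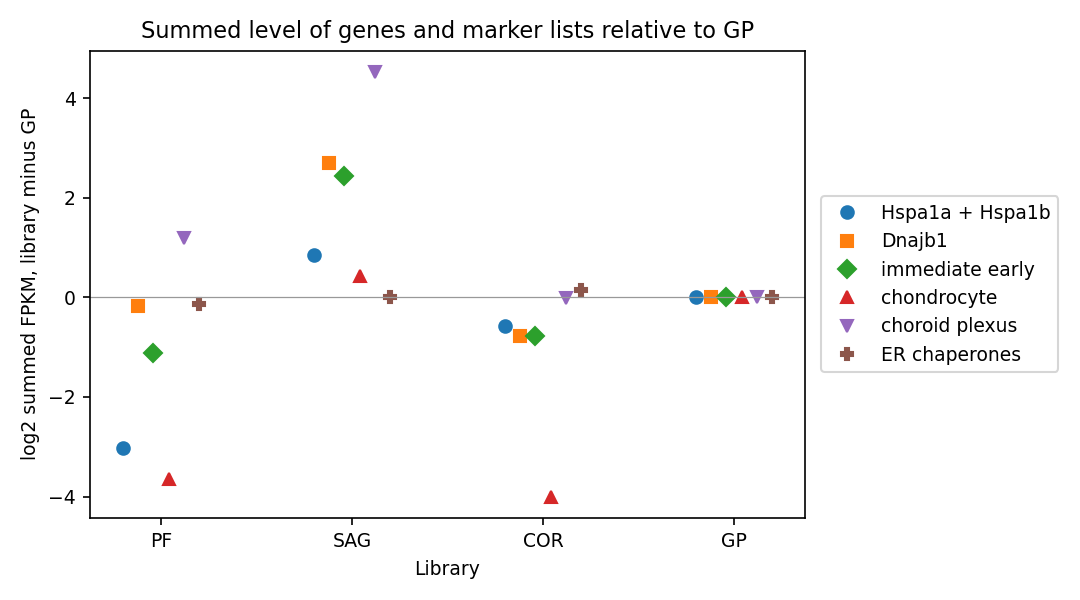
Summed FPKM of *Hspa1a* and *Hspa1b*, of *Dnajb1*, of the immediate early, chondrocyte, and choroid plexus lists, and of the ER chaperones, as log2 of each library minus GP (GP is 0). In SAG *Dnajb1* (2.71) and the immediate early genes (2.43) lie close together, whereas in PF the summed *Hspa1a* and *Hspa1b* (-3.03) lie below both, and the ER chaperones stay within 0.16 of GP.

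Genes with a library pattern most like that of a chaperone were found by the Euclidean distance between mean-centred log2(FPKM + 1) values over the 4 libraries, among 9792 other genes at 5 FPKM or more in some library. Nearest to the summed *Hspa1a* and *Hspa1b* were *Trpv4*, at a distance of 0.312, *Nusap1*, *Zfp365*, *Gcnt1*, and *Spon1*, at 0.505. *Trpv4*, a calcium channel gene, was at 24.4 FPKM in SAG, 12.3 in GP, 10.8 in COR, and 1.15 in PF. Nearest to *Hspa8* were *Akr1e1*, at 0.080, *2010315B03Rik*, *Gm12942*, *Ypel1*, and *Wdpcp*, at 0.143. For *Dnajb1*, whose pattern was added after its values were seen, the nearest were *Tmem212*, at 0.174, *Pcp4*, *Mia*, *Lrrc46*, and *Slc27a6*, at 0.387. *Mia*, a cartilage gene, was at 648.5 FPKM in SAG, 132.3 in GP, 86.1 in PF, and 61.0 in COR. With 4 libraries many genes share a pattern, and these names are only a description of it.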

How the data were processed

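The 4 deposited tables, 1 per tissue, hold FPKM per gene symbol, which the authors estimated with Cuffdiff of Cufflinks 2.2.1 and the Illumina iGenomes gene model after mapping paired-end reads to mouse mm9 with STAR 2.5.1b. How Cuffdiff scaled the libraries is not given in the sources used here. Samples were grouped by tissue from their labels.

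The 10 genes and all lists were chosen with earlier results of these data known. Ratios used log2(FPKM + 1) for genes at 1 FPKM or more in either library, with thresholds of 3-fold and 2-fold. No test was made, since each tissue has 1 library, and FPKM without counts gives no counting interval. Named were the 10 genes, up to 4 genes past 3-fold of each chaperone list and of the immediate early list, the 5 genes nearest in pattern, *Gapdh*, and the sort markers. *Bag3*, *Cryaa*, *Cryab*, *Hspa1l*, *Hspa5*, *Hspa9*, *Hspd1*, *Hsf1*, *Hsf2*, and the single genes of the cell marker lists were chosen after their values were seen.

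Positions come from GENCODE vM1 on mm9. A near-full-length copy is a match of at least 90% identity over at least 80% of the coding sequence elsewhere in mm9, found with minimap2 2.31. Depth was estimated from the most common ratio of values below 0.25 FPKM between libraries. Scripts ran in Python 3.11.15 (pandas 2.3.3, numpy 2.4.6, matplotlib 3.10.9, scipy 1.17.1). In simulated data of 8123 genes with little noise, the ratio step recovered 200 of 200 genes changed well beyond the 3-fold threshold. Recovery was near certain at that size, so this checked the code and not the calls.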

Additional observations from a re-analysis of the deposited data

How the results depend on the processing

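Every ratio of the 10 genes was recomputed with a pseudocount of 0.1, with no expression filter, with a filter of 5 FPKM, with median-ratio scaling, with quantile normalization, relative to *Gapdh*, with *Hspa1a* and *Hspa1b* summed, and, chosen after seeing the data, with loess corrections (span 0.3) for GC content and for transcript length. Of 528 values for single genes, 522 kept their side of 3-fold, 2 lost it, 4 gained it, and no ratio past 3-fold turned in direction. Part of these values could not change. All 10 genes were above 5 FPKM in every library, so neither change of the filter could move a ratio. Summing *Hspa1a* and *Hspa1b* likewise left the ratios of the other genes as they were. *Hsp90aa1* in PF minus SAG lost it, at -1.22 relative to *Gapdh* and -1.46 with the GC correction. *Hspa8* in PF minus SAG gained it with quantile normalization (-1.73), *Hspb1* in PF minus COR relative to *Gapdh* (1.65), and *Hspa1a* and *Hspa1b* in COR minus SAG with the GC correction (-1.62 each). Among ratios below 3-fold, 20 values changed sign. The median of the 10 genes in PF minus COR became 0.15 relative to *Gapdh* and 0.0235 with the GC correction, and that in PF minus GP became 0.14 relative to *Gapdh*. The count past 3-fold became 4 for COR with SAG under the GC correction, and 1 for PF with COR and 1 for PF with GP with *Hspa1a* and *Hspa1b* summed, where 9 genes are counted. The count past 2-fold for COR with SAG became 4 relative to *Gapdh*. Shares of all genes were not computed for these settings. Scaling to *Gapdh* moved the median of all genes to 0.51 for PF minus SAG, 0.46 for PF minus GP, 0.29 for PF minus COR, 0.23 for COR minus SAG, and 0.21 for COR minus GP. The 12 comparisons of *Hspa1a* or *Hspa1b* alone with *Hspa8* kept the direction and size class of their sum. No paired analysis was possible because the study made a single library of each tissue. For the same reason no replicate could be left out, and the spread between mice, sorts, and libraries cannot be told apart from the difference between tissues.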
